A study of Mus musculus with 35 samples.

Results

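The genes described here are 10 genes of the circadian clock: Clock, Npas2, Per1, Per2, Per3, Cry1, Nr1d1, Nr1d2, Dbp and Tef. They were chosen with earlier results of these data known. They were taken by symbol, and all 10 were found among the 36106 rows of a table of estimated counts from mouse skin. The RNA of 35 whole skin biopsies, from 19 mice, had been sequenced in bulk. The mice were C57BL/6J females, a common inbred strain, and 10 weeks old at the start. In 16 mice the skin of the left flank had received 25 Gy at 3.6 Gy per min over 420 seconds and was then shaved. A radiated and a control sample were taken from 4 of these mice at each of weeks 1, 2, 3 and 4, and 3 further mice were sham mice without radiation. The control skin therefore came from mice that had been radiated elsewhere on the body, and the labels do not say where on the body it was taken. Each week is a different set of 4 mice, and the hour of the day of the biopsies is not given in the sources used here. Week, set of mice and time of collection thus cannot be told apart in any comparison between weeks or with sham skin, whereas the radiated and control samples of 1 week come from the same 4 mice.

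The circadian clock is a feedback loop of transcription with a period of about a day. Clock or its relative Npas2 pairs with Arntl (also called Bmal1) and activates the Per and Cry genes, whose proteins return to the nucleus and repress that activation. In a further loop the same activators drive Nr1d1 and Nr1d2, nuclear receptors that repress Arntl and Npas2, and in an output branch they drive Dbp and Tef, which activate genes through a further promoter element. In skin, keratinocytes, fibroblasts and hair follicle cells are known to carry such clocks, so the level of most of these genes depends on the hour at which tissue is taken.

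The element bound by Clock or Npas2 with Arntl is the E-box, and that bound by Dbp and Tef is the D-box. Several members moved together in these data, so promoters of members were searched for these letters on both strands in windows from 250 bases before to 50 bases after the start of each transcript (RefSeq, GRCm38.p6). The windows covered 9 of the 10 genes (not Per2), in 13 promoters. Promoters that hold an E-box, CACGTG, or a D-box, TTATGTAA or TTACGTAA, are shown over the 250 bases before the start, 5′ to 3′ on the gene's strand, with the matched letters in capitals. They lie at chr10:85185055-85185304 on the minus strand (Cry1), chr11:69098699-69098948 on the plus strand (Per1), chr15:81802423-81802672 and chr15:81811164-81811413 on the plus strand (Tef) and chr4:151044666-151044915 on the minus strand (Per3).
Cry1: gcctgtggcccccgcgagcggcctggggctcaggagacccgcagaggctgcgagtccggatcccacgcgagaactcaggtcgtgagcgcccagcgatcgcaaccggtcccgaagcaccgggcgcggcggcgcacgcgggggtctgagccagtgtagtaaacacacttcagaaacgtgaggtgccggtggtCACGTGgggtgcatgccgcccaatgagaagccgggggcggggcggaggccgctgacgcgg
Per1: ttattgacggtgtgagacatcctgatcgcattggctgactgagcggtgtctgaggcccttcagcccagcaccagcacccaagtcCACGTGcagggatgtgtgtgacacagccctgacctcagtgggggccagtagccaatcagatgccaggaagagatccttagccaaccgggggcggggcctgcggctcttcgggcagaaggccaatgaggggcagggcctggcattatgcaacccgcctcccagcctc
Tef, upstream promoter: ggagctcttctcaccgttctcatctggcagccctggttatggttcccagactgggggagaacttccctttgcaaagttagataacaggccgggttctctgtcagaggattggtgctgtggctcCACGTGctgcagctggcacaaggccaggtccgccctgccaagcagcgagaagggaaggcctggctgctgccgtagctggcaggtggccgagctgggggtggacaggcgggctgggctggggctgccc
Tef, downstream promoter: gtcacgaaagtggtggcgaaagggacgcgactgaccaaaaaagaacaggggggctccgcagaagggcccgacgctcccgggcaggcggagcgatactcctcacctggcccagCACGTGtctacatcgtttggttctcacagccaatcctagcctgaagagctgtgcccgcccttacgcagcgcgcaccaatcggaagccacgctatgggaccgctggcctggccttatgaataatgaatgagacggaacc
Per3: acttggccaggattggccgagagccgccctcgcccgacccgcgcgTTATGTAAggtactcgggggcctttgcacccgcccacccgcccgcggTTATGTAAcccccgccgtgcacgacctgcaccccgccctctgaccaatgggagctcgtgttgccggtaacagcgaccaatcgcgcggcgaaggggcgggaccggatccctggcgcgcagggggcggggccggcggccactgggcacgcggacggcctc
The E-box stood 60 bases before the start in Cry1, 166 in Per1, and 127 and 138 in the 2 promoters of Tef. These were 4 of the 13 member promoters, and 7.15% of all 32851 promoters of this length held the same letters. Per3 held the D-box at 205 and at 158 bases before its start, in 1 of the 13 promoters, and 1.06% of all promoters held a D-box. The letters AGGTCA, the core of the element that Nr1d1 and Nr1d2 bind, were found in 1 promoter each of Clock, Per1 and Nr1d2, and in 16.3% of all promoters. A match is a description of the sequence and not a binding site, and these windows hold no distant element.

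Library totals ran from 17362853 to 28487885 counts, and a member had between 38 and 14744 counts in a library. All 10 passed the filter on low counts in each comparison. Levels are given as CPM, counts scaled to a library of 1e6 counts, and are not divided by transcript length, so they were compared between samples and not between genes. In bulk tissue, fewer cells of a type and less RNA per cell cannot be told apart. Skeletal muscle genes differed much between libraries: the summed level of 8 of them ran from 25580 to 51380 CPM in control skin of weeks 1 and 2 and from 1664 to 36000 in weeks 3 and 4. In radiated skin the same sums were 10030 to 26190 and then 2266 to 8508, which do not overlap. Muscle has a clock of its own, and the values of the libraries with like muscle sums are given below.

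**Figure D1:**
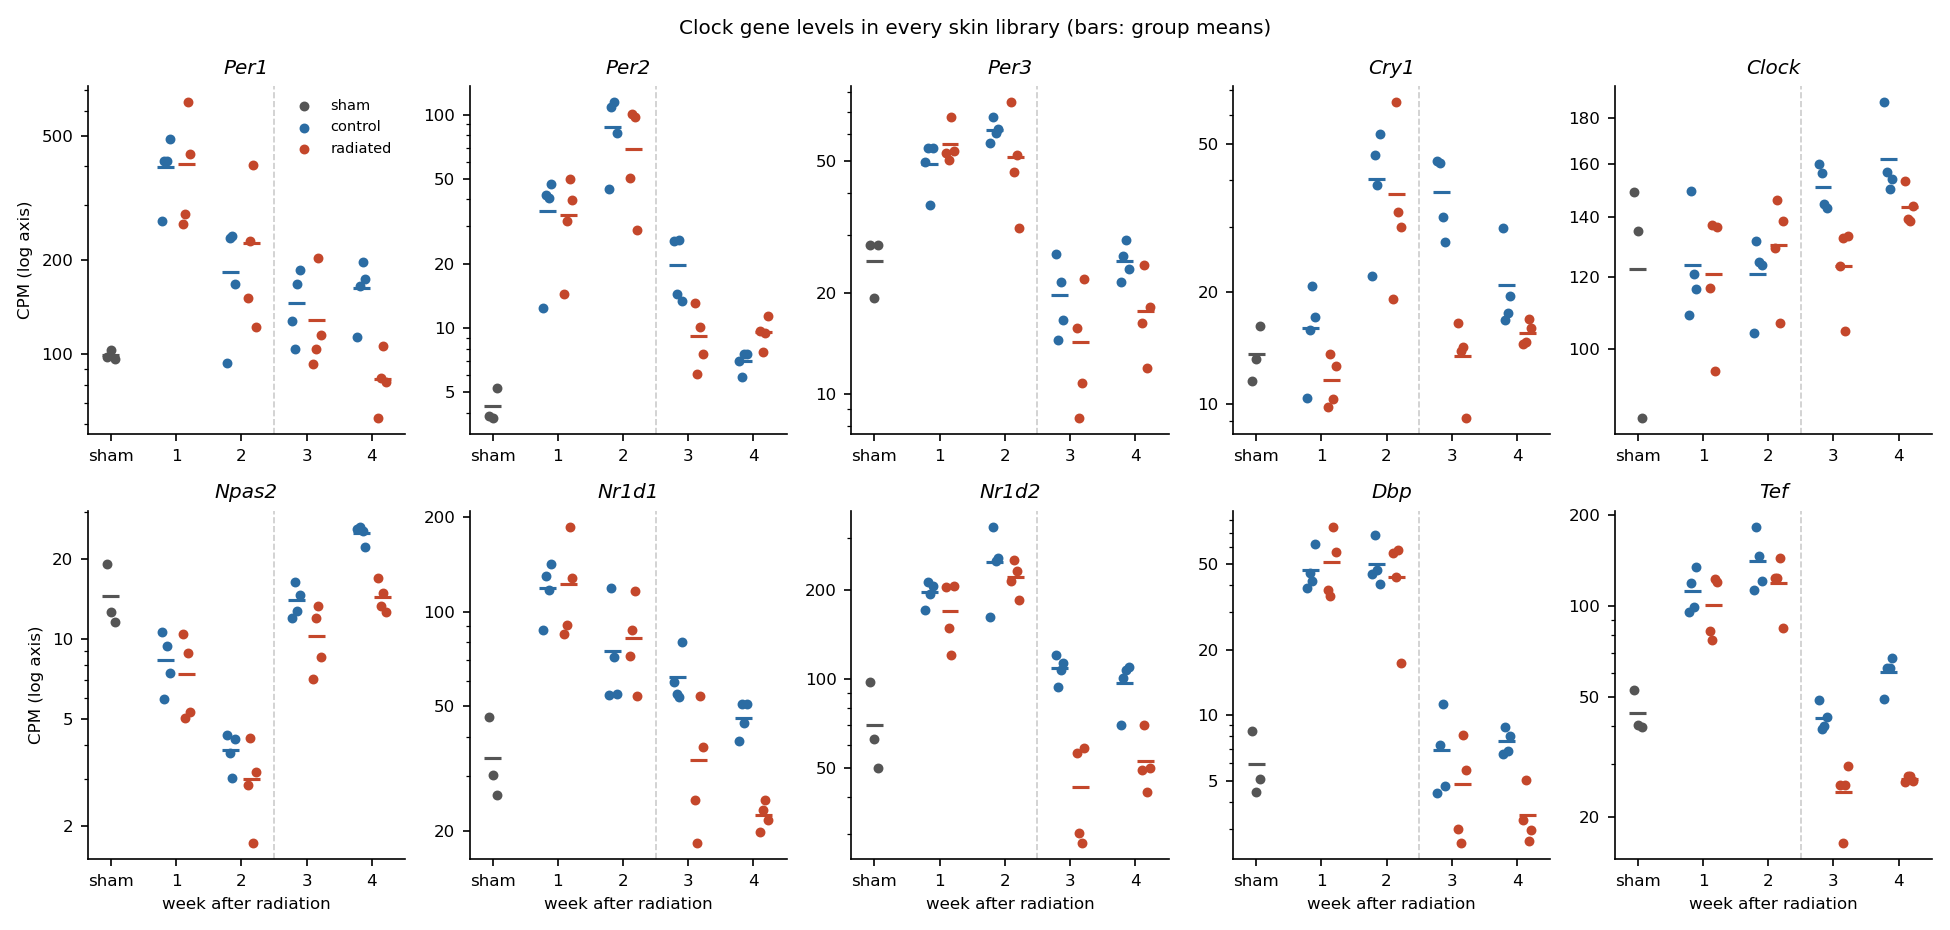
Level of each clock gene in every skin library, in CPM on a log axis, in sham skin and at weeks 1 to 4 in control (blue) and radiated (red) skin; points are libraries and bars group means (n = 3 in sham, 4 in each other group). Dbp, Tef, Nr1d2 and Per3 are high in all libraries of weeks 1 and 2 and low in weeks 3 and 4 in both kinds of skin without overlap, and Npas2 runs the other way, with overlap in radiated skin.

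To ask whether the clock genes kept their level over the month, weeks 3 and 4 were compared with weeks 1 and 2, first in control skin. Of the 10 genes, 7 differed (edgeR quasi-likelihood F test, Benjamini-Hochberg adjusted p under 0.05 over 19338 genes), 5 of them lower and 2 higher. Over all genes tested 0.729% were called, 0.574% lower and 0.155% higher. The median log2 fold change of the 10 was -0.97, against 0.003 over all genes. Ranked by p, Dbp, Tef and Npas2 were the first 3 of all 19338 genes, and Per2, Per3 and Nr1d2 were ranks 6, 10 and 13. Since the 10 genes were chosen with earlier results of these data known, these ranks and shares describe them and are no independent test. The target genes Dbp, Tef, Per2, Per3 and Nr1d2 were lower in the late weeks, and the activators Npas2 and Clock were higher.

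The largest difference was in Dbp, a transcription factor of the output branch. In control skin of week 1 Dbp stood at 38.81, 45.8, 41.9 and 62.11 CPM, and in week 2 at 44.97, 68.7, 47.33 and 40.35 CPM. In week 3 it stood at 4.366, 7.331, 11.34 and 4.739 CPM, and in week 4 at 6.615, 8.846, 6.877 and 8.073 CPM. Every late library lay below every early one, with a gap from 11.34 to 38.81 CPM. Dbp was 6.69-fold lower (log2 fold change -2.74, SE 0.261, edgeR adjusted p 6.22e-07).

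Tef, which belongs to the same family as Dbp, fell in control skin from a median of 120.6 CPM (lowest 95.91, highest 183.6, n = 8) to 48.99 CPM (39.11 to 67.04, n = 8). The early and late libraries did not overlap. The log2 fold change was -1.31 (SE 0.13, edgeR adjusted p 7.83e-07).

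Npas2, a partner of Arntl, went the other way. It stood at 10.61, 5.938, 9.449 and 7.444 CPM in control skin of week 1 and at 4.368, 3.743, 3.013 and 4.223 CPM in week 2. It then stood at 12.02, 16.3, 12.78 and 14.67 CPM in week 3 and at 25.77, 26.36, 25.42 and 22.1 CPM in week 4. All late libraries lay above all early ones, and the 4 libraries of week 4 above all others. Npas2 was 3.29-fold higher late (log2 fold change 1.72, SE 0.174, edgeR adjusted p 8.64e-07). Of the single pairs of weeks, week 3 against week 1 did not pass (log2 fold change 0.74, adjusted p 0.11).

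Clock, the other activator of this kind, had early values from 104 to 149.3 CPM and late values from 143.2 to 187.6 CPM in control skin, and these overlap. Its log2 fold change of 0.35 (SE 0.0857) had an edgeR adjusted p of 0.045, close to the threshold. Leaving out 1 of the 32 libraries at a time lost this call in 23 cases, with adjusted p from 0.0501 to 0.13. These were 14 of the 16 control libraries (not replicate 2 of week 1 or replicate 4 of week 4) and 9 of the 16 radiated ones. The call was also lost without the filter on low counts (0.0999) and with another scaling (0.0558). Of the single pairs of weeks only week 4 against week 2 passed for Clock (0.42, adjusted p 0.0299). The other pairs had 0.29 to 0.40, with adjusted p from 0.0956 to 0.311. Arntl, the shared partner, is not among the 10 genes, but it is the gene on which the loop turns. It rose from 25.08 CPM (15.34 to 36.18) to 55.69 CPM (47.21 to 66.42) in control skin, without overlap, by 1.12 on the log2 scale (SE 0.156, adjusted p 1.41e-04).

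**Figure D2:**
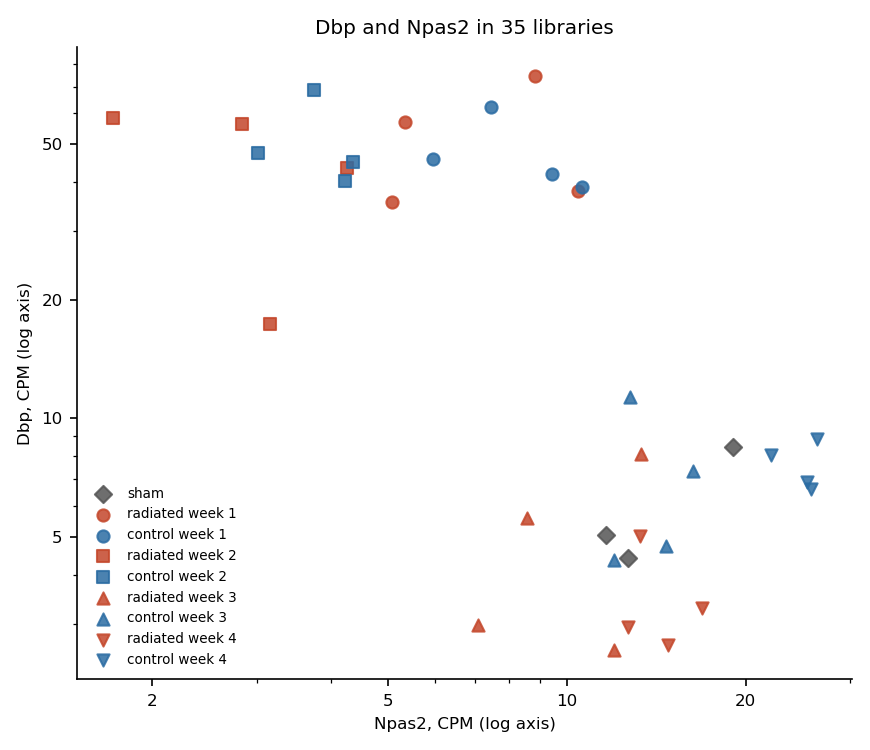
Dbp against Npas2, both in CPM on log axes, in all 35 libraries, with colour for the kind of skin and a symbol for the week. The libraries of weeks 1 and 2 lie at the upper left, with Dbp at 17.43 CPM or above, and those of weeks 3 and 4 and of sham skin at the lower right, with Dbp at 11.34 CPM or below.

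Among the repressors, Per2 and Per3 fell in control skin and Per1 and Cry1 did not pass. Per2 had an early median of 45.98 CPM (lowest 12.38, highest 114.7) and a late median of 10.47 CPM (5.927 to 25.98), with overlap. The log2 fold change of Per2 was -2.24 (SE 0.289, edgeR adjusted p 5.73e-05), but the size depended on the weeks: it was -0.84 for week 3 against week 1 (adjusted p 0.302) and -3.64 for week 4 against week 2 (adjusted p 1.22e-05). Per3 went from 55.57 CPM (36.79 to 67.71) to 22.69 CPM (14.5 to 28.96), without overlap, and differed by -1.31 on the log2 scale (SE 0.178, adjusted p 1.07e-04). Per3 did not pass for week 4 against week 1 alone (-0.96, adjusted p 0.0507).

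Per1 responds to stress hormones and other acute signals as well as to the clock. Its early values in control skin ran from 93.68 to 488.6 CPM and its late values from 103.7 to 196.7 CPM, and the log2 fold change was -0.81 (SE 0.241, edgeR adjusted p 0.139). The size depended on the weeks: it was -1.44 for week 3 (adjusted p 0.0271) and -1.28 for week 4 (0.0602) against week 1. Against week 2 it was -0.34 (0.812) and -0.18 (0.82). Within the early weeks Per1 was not level: all 4 control libraries of week 1 lay above all 4 of week 2 (267.6 to 488.6 against 93.68 to 239.4 CPM). Cry1 had another course over the weeks, from 10.38 to 20.71 CPM in week 1, 22.08 to 53.33 in week 2, 27.29 to 45.01 in week 3 and 16.85 to 29.8 in week 4. Weeks 2 and 3 were the high weeks of Cry1, so that late against early differed by 0.14 on the log2 scale (SE 0.203, edgeR adjusted p 0.886). The single pairs of weeks went both ways for Cry1: 1.22 for week 3 against week 1 (adjusted p 0.0259) and -0.95 for week 4 against week 2 (adjusted p 0.0371).

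Of the 2 nuclear receptors, Nr1d2 fell in control skin and Nr1d1 was at the threshold. Nr1d2 went from a median of 210.5 CPM (162.3 to 328.5) to 107.6 CPM (69.86 to 121), without overlap (log2 fold change -1.11, SE 0.16, edgeR adjusted p 2.25e-04). Nr1d1 went from 102.2 CPM (54.37 to 141.5) to 52.05 CPM (38.58 to 79.82), with overlap, and its log2 fold change of -0.82 (SE 0.204) had an adjusted p of 0.0505. Against week 1 alone Nr1d1 was -0.94 for week 3 (adjusted p 0.089) and -1.36 for week 4 (0.0205). Against week 2 it was -0.28 (0.813) and -0.71 (0.13). Leaving out single libraries brought Nr1d1 under the threshold in 9 of 32 cases, with adjusted p from 0.0307 to 0.0498. These were replicate 1 of weeks 1 and 2 in control skin and 7 radiated libraries, which enter the shared estimate of the spread. In all, 5 of the 10 genes did not overlap between early and late control libraries (Per3, Npas2, Nr1d2, Dbp and Tef), and 0.212% of 19813 genes did not.

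In 3 late control libraries (week 3, replicates 1, 2 and 4) the summed muscle genes lay within the early range. In those 3, Dbp was at 4.366 to 7.331 CPM against 38.81 to 68.7 in the early libraries, Tef at 39.11 to 48.66 against 95.91 to 183.6, Nr1d2 at 93.83 to 121 against 162.3 to 328.5 and Per3 at 14.5 to 26.29 against 36.79 to 67.71. Npas2 was at 12.02 to 16.3 CPM in them, against 3.013 to 10.61. The other 5 members overlapped the early range: Per2 was at 13.36 to 25.52 CPM against 12.38 to 114.7, Nr1d1 at 54.64 to 79.82 against 54.37 to 141.5, Per1 at 103.7 to 186.1 against 93.68 to 488.6, Cry1 at 27.29 to 45.01 against 10.38 to 53.33 and Clock at 143.2 to 160.1 against 104 to 149.3. Per2 and Clock are among the 7 called genes. These libraries are all of week 3, since no control library of week 4 reached the early muscle range. The part of muscle in the differences was not tested.

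In the marker lists of other cells 1 gene was called between early and late control skin (of 6 adipocyte genes), in a comparison that called 0.729% of all genes. The list median log2 fold changes were -3.31 for the growing hair follicle, -0.87 for muscle, -0.73 for adipocytes, -0.68 for fibroblasts, 0.57 for myeloid cells and 0.13 for keratinocytes, against 0 over all genes. The follicle sums were high in few libraries: 2545 and 557.7 CPM in replicates 1 and 4 of control week 1, 1484 in replicate 1 of week 2 and 652.4 in replicate 4 of week 3, against 16.02 to 62.97 CPM in the other 12 control libraries. Their part in the differences of the clock genes was not tested.

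The other clock genes that were listed were compared in control skin as well, where 0.729% of all genes were called. Of 12 further core clock genes 5 were called, 1 higher (Arntl) and 4 lower. Ciart, a repressor of the Clock and Arntl pair, had a log2 fold change of -1.99 (adjusted p 2.17e-04), Bhlhe40 -1.04 (0.00125), Cry2 -1.01 (0.00528) and Bhlhe41 -0.94 (0.00566), each in edgeR. Of 11 clock kinases, ligases and related enzymes 1 was called, Usp2, a deubiquitinase under clock control (-1.20, adjusted p 5.73e-05). Of 9 clock output genes the same Usp2 was the only one called, and 0 of 8 immediate early genes and 0 of 8 glucocorticoid response genes, a list that includes Per1, were called by edgeR.

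Radiated skin was then put through the same comparison. There 8 of the 10 genes differed, 7 lower and 1 higher, where 35.6% of all genes were called (18.1% lower and 17.5% higher). The median log2 fold change of the 10 genes was -1.79, against 0.02 over all genes. Tef ranked first of all 19338 genes by p, Nr1d2 ranked 15 and Dbp ranked 11. Scaling by total counts added 0.11 to the log2 fold changes of the members and kept all 8 calls, but moved the share of higher genes among all calls from 49.1% to 62.7%. In both kinds of skin, 6 of the 10 genes were called in the same direction (Per2, Per3, Nr1d2, Dbp, Tef and Npas2), against 0.398% of all genes.

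Dbp fell further in radiated skin than any other member. It stood at 37.92, 35.67, 74.69 and 56.85 CPM in radiated skin of week 1 and at 56.4, 43.49, 58.2 and 17.43 CPM in week 2. It then stood at 2.973, 2.565, 8.113 and 5.573 CPM in week 3 and at 3.287, 5.005, 2.64 and 2.945 CPM in week 4. No late library reached an early one, although replicate 4 of week 2 was far below the other early libraries. Dbp was 11.4-fold lower (log2 fold change -3.51, SE 0.272, edgeR adjusted p 4.52e-10).

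Tef in radiated skin had an early median of 122 CPM (77.17 to 144.1, n = 8) and a late median of 26.25 CPM (16.33 to 29.43, n = 8). The log2 fold change was -2.08 (SE 0.134, edgeR adjusted p 4.85e-11), and the 4 libraries of week 4 lay within 26.13 to 27.35 CPM. Nr1d2 went from 205.6 CPM (120.6 to 253.4) to 49.66 CPM (27.84 to 69.88), also without overlap (log2 fold change -2.0, SE 0.164, adjusted p 1.26e-09). Nr1d1 went from 88.86 CPM (53.77 to 186.7) to 24.23 CPM (18.28 to 54.01), and only the lowest early and the highest late library overlapped (log2 fold change -1.85, SE 0.209, adjusted p 1.34e-07).

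All 3 Per genes fell in radiated skin. Per2 went from a median of 45.0 CPM (14.39 to 100.2) to 9.538 CPM (6.064 to 13.03), without overlap (log2 fold change -2.34, SE 0.29, edgeR adjusted p 4.78e-07). Per3 went from 52.27 CPM (31.33 to 74.98) to 16.0 CPM (8.442 to 24.29), without overlap (-1.73, SE 0.181, adjusted p 4.29e-08). Per1 went from 271.3 CPM (122.5 to 641.4) to 98.38 CPM (62.37 to 202.9), with overlap (-1.52, SE 0.245, adjusted p 1.76e-05), and did not pass for week 3 against week 2 alone (-0.80, adjusted p 0.0867). Cry1, from 9.778 to 65.12 CPM early and from 9.119 to 16.89 CPM late, did not pass (-0.49, SE 0.205, adjusted p 0.0643). Its weekly means in radiated skin were 11.57 ± 1.84, 36.78 ± 19.8, 13.43 ± 3.1 and 15.52 ± 1.13 CPM (SD, n = 4), so week 2 was the high week of Cry1, with a wide spread. Cry1 passed without replicate 1 (adjusted p 0.0174) or replicate 4 (0.0436) of radiated week 2, without replicate 1 of control week 2 (0.0475), and in DESeq2 (0.0498). Its size and sign depended on the weeks: it was -1.43 for week 3 (adjusted p 7.86e-04) and -1.21 for week 4 (0.00335) against week 2, but 0.24 (0.616) and 0.45 (0.285) against week 1.

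Of the activators, Npas2 rose and Clock did not pass. Npas2 in radiated skin went from a median of 4.67 CPM (1.716 to 10.42) to 12.97 CPM (7.089 to 16.91), with overlap, and was 2.63-fold higher (log2 fold change 1.4, SE 0.175, edgeR adjusted p 5.48e-07). For week 3 against week 1 alone Npas2 did not pass (0.49, adjusted p 0.153). Clock, at 94.4 to 145.9 CPM early and 104.7 to 153.3 CPM late, differed by 0.11 on the log2 scale (SE 0.0857, edgeR adjusted p 0.346). Arntl rose from 25.33 CPM (15.88 to 33.03) to 33.32 CPM (26.57 to 38.76), with overlap (0.49, SE 0.155, adjusted p 0.0149). Between early and late radiated libraries 5 of the 10 genes did not overlap (Per2, Per3, Nr1d2, Dbp and Tef), against 5.38% of 19813 genes. Radiated skin changed in many other genes between these weeks, where 35.6% of all genes were called. Myeloid (6 of 7) and mast cell (5 of 5) genes rose, and muscle (7 of 8) and immediate early (7 of 8) genes fell. Of 6 keratinocyte genes 4 fell and 1 rose. Of the 9 growing hair follicle genes 4 rose, with sums of 404.3 CPM in replicate 4 of week 3 and 2362 in replicate 3 of week 4 against 14.77 to 134.9 CPM in the other 14 radiated libraries. In addition 4 of 4 endothelial genes and 3 of 6 fibroblast genes rose. Of 8 glucocorticoid response genes, Per1 among them, 6 fell, and so did 3 of 6 adipocyte genes. Their part in the fall of the clock genes was not tested. Of the 12 other core clock genes 9 were called in radiated skin, 6 lower and 3 higher, among them Hlf (-2.95, adjusted p 3.33e-09), Cry2 (-2.06, 6.31e-09), Ciart (-2.49, 2.02e-07) and Bhlhe41 (-1.39, 7.13e-07). Of the 11 clock kinases, ligases and related enzymes 5 were lower, Usp2 by the most (-1.73, adjusted p 5.78e-09).

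**Figure D3:**
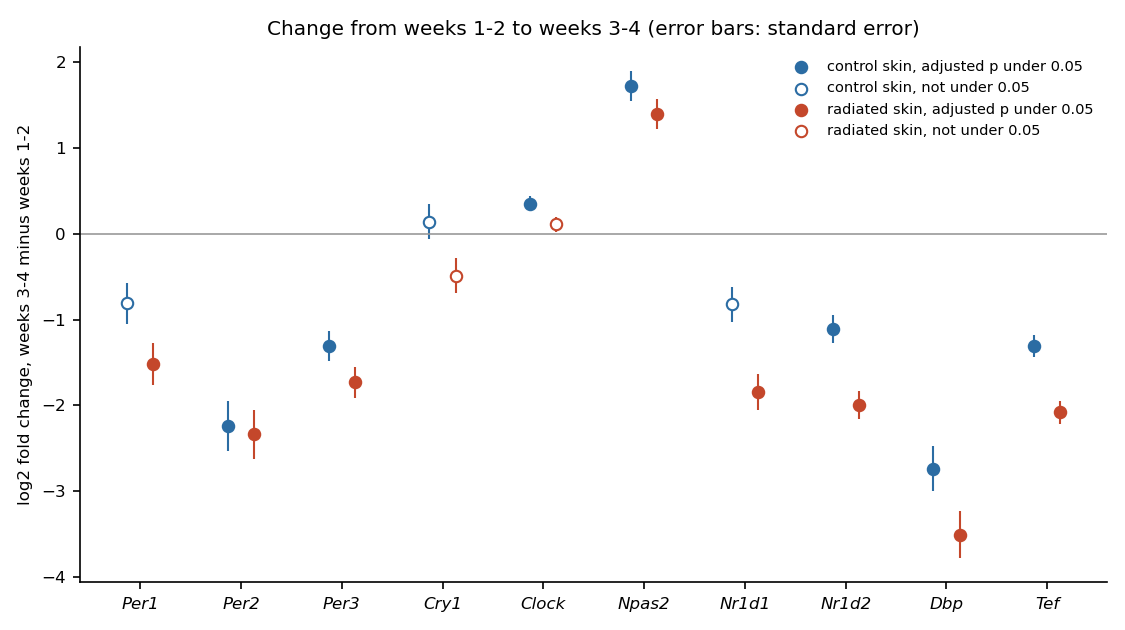
Log2 fold change of weeks 3 and 4 against weeks 1 and 2 for each clock gene, in control (blue) and radiated (red) skin, with standard errors; filled points have an adjusted p under 0.05. Dbp, Per2, Tef, Per3 and Nr1d2 lie below 0 and Npas2 above 0 in both, and the radiated point is the lower one for each of the 10 genes.

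Whether the change from early to late differed between the 2 kinds of skin was tested as a difference of the 2 log2 fold changes. It passed for 3 of the 10 genes, each with a larger fall in radiated skin, where 19.8% of all genes passed, 10.2% lower and 9.6% higher. The differences were -1.02 for Nr1d1 (SE 0.287, edgeR adjusted p 0.0116), -0.89 for Nr1d2 (SE 0.224, adjusted p 0.00503) and -0.77 for Tef (SE 0.182, adjusted p 0.0032). In single pairs of weeks Nr1d1 passed in 0 of 4 (-1.14 to -0.91, adjusted p 0.0704 to 0.194). Nr1d2 did not pass for week 4 against week 1 (-0.65, 0.184) or week 2 (-0.68, 0.182), nor Tef for week 3 against week 1 (-0.65, 0.141) or week 2 (-0.55, 0.202). The difference for Dbp was of the same size, -0.77, but its SE was 0.352 and its adjusted p 0.132. Without replicate 4 of radiated week 2 it was -0.92 (adjusted p 0.0399), and without replicate 3 of radiated week 3 -0.96 (adjusted p 0.0488). For Per2 the difference was -0.10 with an SE of 0.393 (adjusted p 0.897), too wide an estimate to show that the change was equal. For Per1, Cry1, Npas2, Per3 and Clock it lay between -0.71 and -0.24, with adjusted p from 0.135 to 0.397. For week 3 against week 2 alone the difference for Cry1 passed (-1.31, adjusted p 0.049). The median over the 10 genes was -0.67, against 0.01 over all genes.

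With the mouse as a block, which compares the 2 samples of each animal, the difference also passed for Per1 (-0.67, adjusted p 0.0294) and Cry1 (-0.58, adjusted p 0.0473), so that 5 of the 10 genes were called, against 3914 of all 19338 genes with the same block. In the fit without the block, 7 of the 12 other core clock genes passed, 5 lower and 2 higher, where 19.8% of all genes passed. Hlf, a relative of Dbp and Tef, had a difference of -2.36 (edgeR adjusted p 2.07e-05), and Rora, an activating receptor that competes with Nr1d1 and Nr1d2, had -1.26 (adjusted p 0.00197). Cry2 had -1.05 (0.00456) and Arntl -0.63 (0.0395). Other lists moved in the same fit without the block. Of the 9 growing hair follicle genes 6 were higher, with a list median of 7.01 (the few libraries with high follicle sums are given above), and 4 of 6 fibroblast genes, 4 of 4 endothelial genes, 3 of 7 myeloid genes and 3 of 5 mast cell genes were higher. Of the immediate early genes 6 of 8, of the keratinocyte genes 4 of 6 and of the muscle genes 3 of 8 were lower. Their part in the differences of the clock genes was not tested.

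Radiated skin was then set against control skin week by week, which puts each radiated sample beside control skin of the same mouse taken in the same week. At weeks 1 and 2 none of the 10 genes passed in edgeR, 0 of 10 had an unadjusted p under 0.05 in either week, and DESeq2 also called 0. Over all genes 0% were called in week 1 and 0.00577% in week 2. These fits do not use the pairing by mouse. With the mouse as a block 0 of the 10 genes were called in both weeks as well, although at week 2 the calls over all genes rose from 1 to 641 of 17345. The log2 fold changes ran from -0.46 (Cry1, SE 0.225) to 0.20 (Per3, SE 0.163) in week 1 and from -0.37 (Npas2, SE 0.303) to 0.30 (Per1, SE 0.394) in week 2. In week 1 Cry1 and Npas2 were lower in 4 of 4 mice. No member had separate ranges in radiated and control skin in these weeks, where 7.98% of genes did in week 1 and 6.42% in week 2. In simulated data of week 1, 100 genes were changed by 1 and 100 by 2 on the log2 scale, and 38.4% and 86.5% of them were recovered. The real comparison of week 1 called 0% of genes, so its adjusted threshold was harder to pass. Real differences, also some larger than 1, could thus be missed in that week. Scaling by total counts added 0.15 to the week 1 log2 fold changes and turned the sign of Per2 and Clock, which were -0.05 and -0.03.

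At week 3, 4 of the 10 genes were lower in radiated skin, where 27.2% of all genes were called and 13.6% lower. The median log2 fold change of the 10 genes was -0.65, against 0.08 over all genes. Scaling by total counts added 0.23 to the log2 fold changes of the members in this week and left 2 of the 4 calls. It also moved the share of higher genes among all calls from 50.1% to 76.1%.

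Cry1, a repressor of the loop, stood at 45.01, 44.44, 31.89 and 27.29 CPM in control skin of week 3 and at 16.51, 13.85, 14.25 and 9.119 CPM in radiated skin. The highest radiated library lay below the lowest control one, and each of the 4 mice had less in its radiated skin. Cry1 was 2.71-fold lower (log2 fold change -1.44, SE 0.236, edgeR adjusted p 0.00319).

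Nr1d2, a repressor of Arntl and Npas2, stood at 121, 93.83, 107.5 and 113.6 CPM in control skin of week 3 and at 56.39, 30.04, 27.84 and 58.35 CPM in radiated skin. The ranges did not overlap, and the log2 fold change was -1.31 (SE 0.255, edgeR adjusted p 0.00622). Tef stood at 48.66, 39.11, 39.93 and 42.76 CPM in control skin and at 25.47, 16.33, 25.56 and 29.43 CPM in radiated skin. Tef was lower in 4 of 4 mice without overlap (-0.79, SE 0.188, adjusted p 0.0139), but with total-count scaling it did not pass (-0.56, adjusted p 0.0522).

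Per2, a repressor that partners the Cry proteins, stood at 25.52, 14.42, 25.98 and 13.36 CPM in control skin of week 3 and at 13.03, 6.064, 10.09 and 7.553 CPM in radiated skin. It was lower in 4 of 4 mice, and the ranges almost touched. The log2 fold change was -1.08 (SE 0.312, edgeR adjusted p 0.0301). The call was lost without replicate 1 (-0.94, adjusted p 0.0835) or 3 (-0.94, 0.0737) of the control skin, without replicate 2 (-0.92, 0.0705) or 4 (-0.99, 0.0593) of the radiated skin, and with total-count scaling (-0.87, 0.0626).

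Nr1d1 stood at 59.86, 54.64, 53.41 and 79.82 CPM in control skin of week 3 and at 25.15, 18.28, 54.01 and 37.08 CPM in radiated skin. Mouse 3 of this week had a log2 ratio of 0.02, while the other 3 had -1.25, -1.58 and -1.11. Nr1d1 did not pass (log2 fold change -0.85, SE 0.308, edgeR adjusted p 0.0659), but passed without that radiated library (-1.18, adjusted p 0.013), with the mouse as a block (-0.96, adjusted p 0.049), in DESeq2 (-0.87, adjusted p 0.0288) and in 1 fit of all 35 libraries (-0.88, adjusted p 0.0198). Clock was lower in 4 of 4 mice without overlap, at 143.2 to 160.1 CPM in control and 104.7 to 133.2 CPM in radiated skin, and did not pass (-0.26, SE 0.121, adjusted p 0.131). Dbp (-0.50), Per3 (-0.45), Npas2 (-0.42) and Per1 (-0.16) did not pass either, and with total-count scaling Per1 turned to a positive sign. In all, 5 of the 10 genes did not overlap at week 3 (Per2, Cry1, Clock, Nr1d2 and Tef), against 29.3% of 19813 genes.

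**Figure D4:**
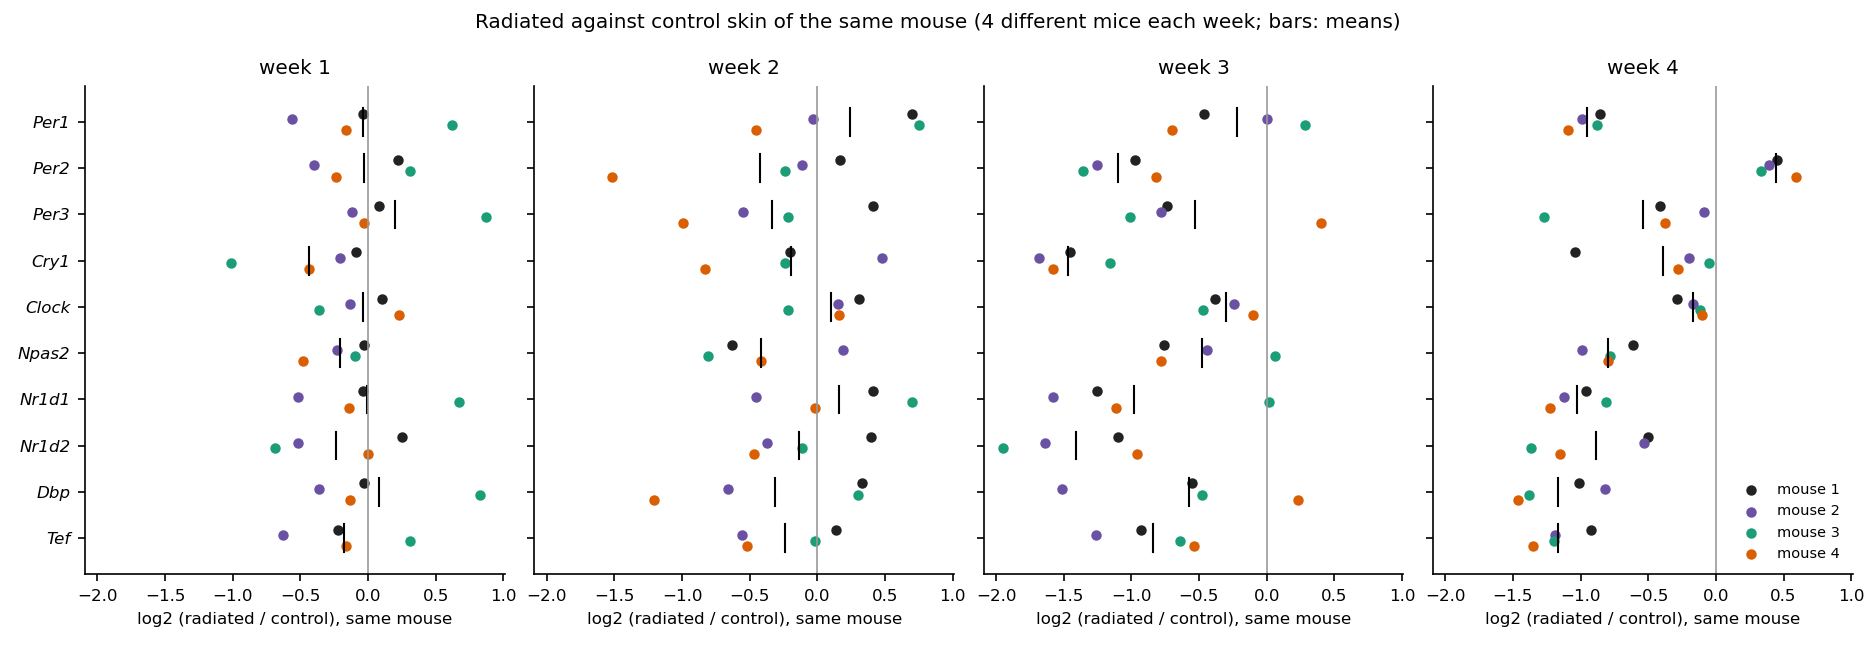
Log2 ratio of radiated to control skin within each mouse for every clock gene, in 4 panels for weeks 1 to 4; each point is 1 mouse and bars are means. In weeks 1 and 2 the mice lie on both sides of 0, apart from Cry1 and Npas2 in week 1, which are below 0 in all 4 mice. In week 3 Cry1, Nr1d2, Per2, Tef and Clock are below 0 in all 4 mice, and in week 4 9 genes are below 0 in all 4 mice and Per2 is above 0 in all 4.

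At week 4, 7 of the 10 genes differed, 6 lower and 1 higher in radiated skin, where 48.4% of all genes were called, 24.2% lower and 24.2% higher. The median log2 fold change of the 10 genes was -0.83, against 0.02 over all genes. Tef stood at 49.32, 62.27, 62.45 and 67.04 CPM in control skin and at 26.13, 27.35, 27.28 and 26.37 CPM in radiated skin, and these ranges lay far apart. Tef was 2.24-fold lower (log2 fold change -1.16, SE 0.104, edgeR adjusted p 2.04e-05), with log2 ratios of -0.92, -1.19, -1.20 and -1.35 in the 4 mice.

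Nr1d1 stood at 38.58, 50.69, 44.08 and 50.63 CPM in control skin of week 4 and at 19.85, 23.36, 25.1 and 21.64 CPM in radiated skin. It was lower in every mouse, and the ranges lay apart (log2 fold change -1.03, SE 0.119, edgeR adjusted p 9.12e-05). Dbp stood at 6.615, 8.846, 6.877 and 8.073 CPM in control and at 3.287, 5.005, 2.64 and 2.945 CPM in radiated skin. Dbp was already low in both kinds of skin in this week, and the radiated libraries were lower still (-1.12, SE 0.22, adjusted p 0.0022).

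Npas2, which rose in both kinds of skin over the weeks, stood at 25.77, 26.36, 25.42 and 22.1 CPM in control skin of week 4 and at 16.91, 13.27, 14.83 and 12.67 CPM in radiated skin. It was 1.72-fold lower in radiated skin, without overlap (log2 fold change -0.78, SE 0.12, edgeR adjusted p 5.13e-04). Its partner Arntl was also lower in radiated skin, at week 3 (-0.74, adjusted p 0.0119) and at week 4 (-0.72, adjusted p 8.62e-04). At weeks 1 and 2 Arntl differed by -0.08 and -0.10 and did not pass.

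Per1 stood at 113.4 to 196.7 CPM in control skin of week 4 and at 62.37 to 106.6 CPM in radiated skin, without overlap (log2 fold change -0.95, SE 0.191, edgeR adjusted p 0.00254). Nr1d2 stood at 69.86 to 110.4 CPM in control and 41.56 to 69.88 CPM in radiated skin, where the lowest control and the highest radiated library almost coincided (-0.88, SE 0.184, adjusted p 0.00325). Both were lower in 4 of 4 mice.

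Per2 went against the other members at week 4. It stood at 7.039, 5.927, 7.518 and 7.573 CPM in control skin and at 9.648, 7.76, 9.427 and 11.42 CPM in radiated skin. The ranges lay close but did not overlap, and the log2 ratios in the 4 mice were 0.45, 0.39, 0.33 and 0.59. The log2 fold change was 0.45 (SE 0.156, edgeR adjusted p 0.0365). The call was lost without replicate 1 (adjusted p 0.071) or 4 (0.36 on the log2 scale, adjusted p 0.1) of the radiated skin and without replicate 1 (0.0552), 2 (0.0826) or 3 (0.0581) of the control skin. It was also lost without the filter on low counts (0.0545) and in a fit of all 35 libraries (0.401).

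Per3 (-0.49, edgeR adjusted p 0.0617), Cry1 (-0.42, 0.0816) and Clock (-0.17, 0.148) were lower in 4 of 4 mice at week 4 and did not pass. Per3 passed without replicate 2 of the radiated skin (-0.68, adjusted p 0.0108) and in DESeq2 (0.039). In all, 6 of the 10 genes did not overlap (Per1, Per2, Npas2, Nr1d1, Dbp and Tef), against 42.7% of 19813 genes.

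The other core clock genes differed in the same weeks. Of these 12, 9 were called at week 3 and 9 at week 4, each time 6 lower and 3 higher. Of all genes 27.2% were called at week 3 and 48.4% at week 4. At week 3 Hlf had a log2 fold change of -2.68 (edgeR adjusted p 0.00177), Bhlhe41 -1.28 (0.00288) and Cry2 -0.97 (0.00431). At week 4 Bhlhe40, a repressor that competes for E-boxes, was higher by 1.48 (adjusted p 2.06e-05), and Hlf (-3.21, 2.07e-05) and Rora (-1.49, 6.43e-05) were lower.

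Of the 11 clock kinases, ligases and related enzymes 5 were lower in each of these weeks, out of 10 tested at week 3 and 11 at week 4, where 27.2% and 48.4% of all genes were called. Among them at week 3 were Usp2 (-1.53, edgeR adjusted p 6.41e-04) and Csnk2a1, a subunit of casein kinase 2 (-0.83, 0.00237), and at week 4 Csnk2a1 (-0.81, 1.35e-05).

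Genes of other lists differed in these weeks too. Of all genes 27.2% were called at week 3 and 48.4% at week 4. At week 4 the summed level of 6 fibroblast genes was 27900 to 47080 CPM in radiated and 2207 to 4635 CPM in control skin, with 6 of 6 genes higher. The 7 myeloid genes summed to 882.4 to 1457 CPM against 134.4 to 168.6 CPM, with 7 of 7 higher, and the 6 keratinocyte genes to 14740 to 20940 CPM against 25370 to 28700 CPM, with 4 lower and 1 higher. The 8 immediate early genes summed to 619.3 to 804.2 CPM against 2147 to 7324 CPM, with 8 of 8 lower, and 5 of 8 glucocorticoid response genes, Per1 among them, were lower. At week 3, 6 of 8 muscle genes were lower in radiated skin, with sums of 3488 to 8508 CPM against 19120 to 36000 CPM, 6 of 7 myeloid and 5 of 5 mast cell genes were higher, and 3 of 8 glucocorticoid response genes were lower. At week 4, 5 of 5 mast cell genes, 4 of 4 endothelial genes and 4 of the 7 hair follicle genes tested were higher, and of 8 muscle genes 5 were lower and 1 higher. In weeks 3 and 4 mitochondrial genes made up 1.04% to 1.31% of counts in radiated and 2.14% to 4.14% in control libraries, without overlap, and in weeks 1 and 2 1.38% to 2.10% and 1.85% to 2.98%, with overlap. The part of these shifts in the differences of the clock genes was not tested.

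Since both kinds of skin came from the same mouse, the members were also examined mouse by mouse. For each gene the deviation of log2 CPM from the mean of its week was correlated between the control and the radiated sample of the 16 mice, with exact permutation of mice within weeks (331776 permutations, two-sided) and Benjamini-Hochberg adjustment over the 10 genes. None of the 10 correlations passed. Per2 had r = 0.76 (exact permutation p 0.0183, adjusted p 0.111) and rho = 0.81 (p 0.00511, adjusted p 0.0511), and 14 of 16 mice deviated to the same side in both samples. Without the 2 mice farthest from the median r was 0.69. Per1 had r = 0.64 (exact permutation p 0.0333, adjusted p 0.111), rho = 0.73 (p 0.0114, adjusted p 0.0568) and 0.60 without the 2 farthest mice.

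Npas2 had r = 0.71 (exact permutation p 0.023, adjusted p 0.111) and rho = 0.64 (p 0.0416, adjusted p 0.139), and r fell to 0.54 (p 0.118) without the 2 farthest mice, so it rested in part on those. Per3 had r = -0.11 (exact permutation p 0.761) and rho = -0.23 (p 0.464), and -0.57 (p 0.0347) without the 2 farthest mice. The other 6 genes had r from 0.19 to 0.53, with unadjusted p from 0.125 to 0.383. Mice of 1 week thus could not be shown to share a high or low level of any member in both samples after adjustment.

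**Figure D5:**
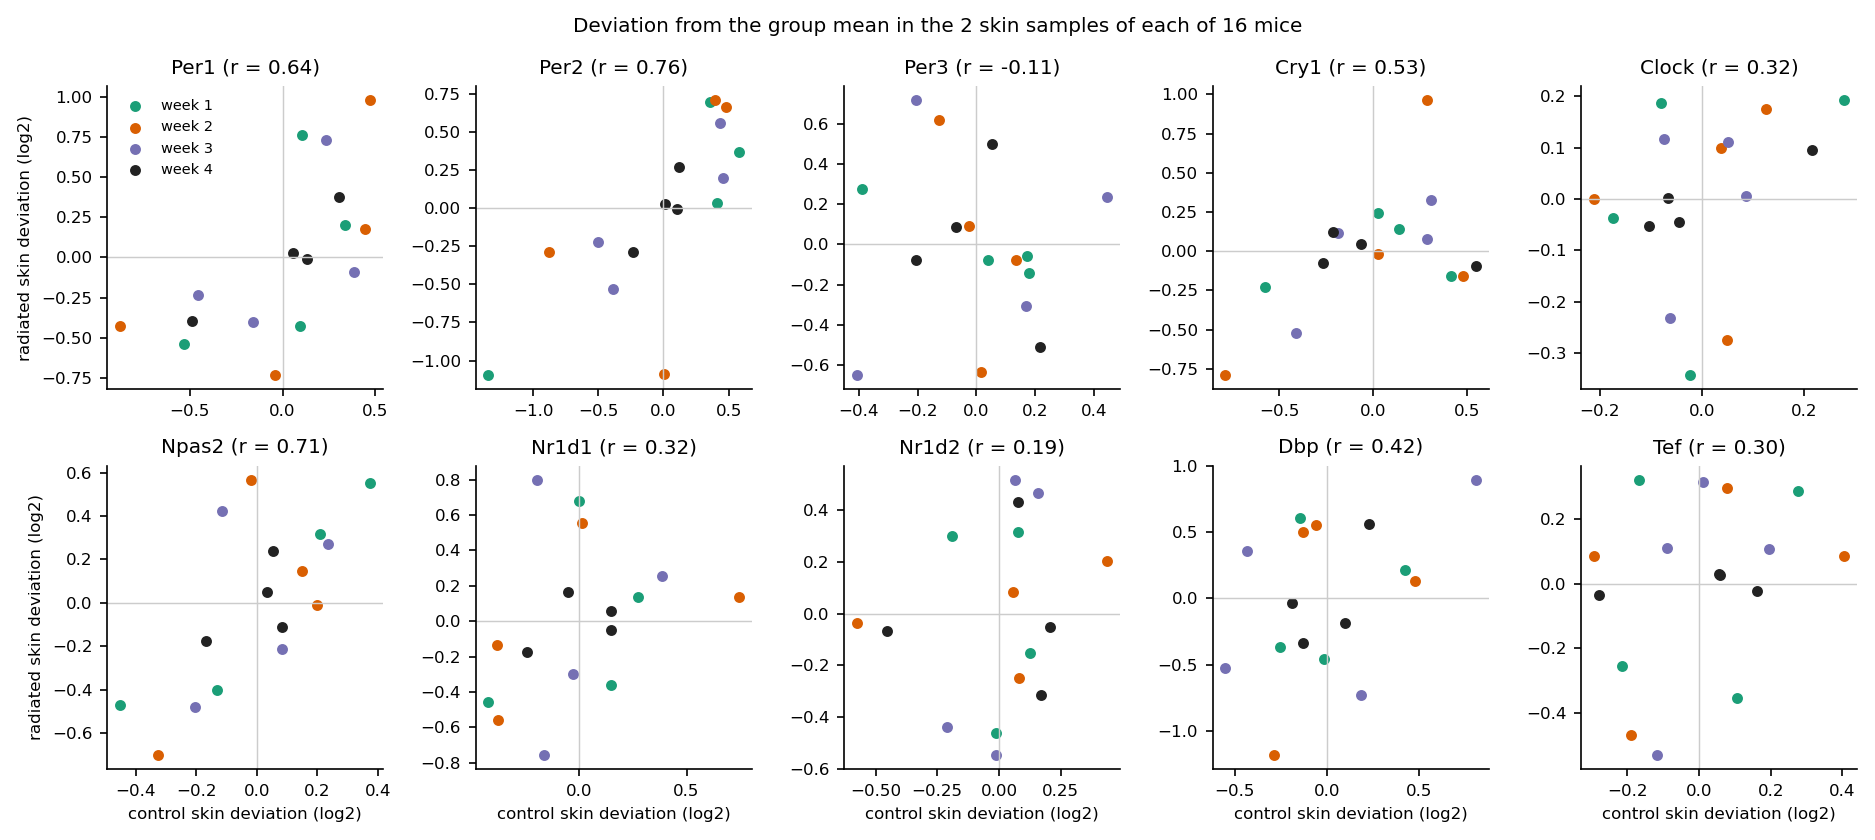
Deviation of log2 CPM from the mean of the week in control skin (x axis) and in radiated skin (y axis) of the same mouse, for the clock genes; each point is 1 of 16 mice. Per2 (r = 0.76), Npas2 (r = 0.71) and Per1 (r = 0.64) slope upward, and Per3 (r = -0.11) does not.

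Sham skin gave a reference outside the radiated mice, with 3 libraries that all 4 comparisons below share. Against sham, 9 of the 10 genes differed in early control skin, 8 higher and 1 lower, where 9.92% of all genes were called (4.51% higher and 5.42% lower). Per2 stood at 3.886, 3.772 and 5.216 CPM in sham skin and at 12.38 to 114.7 CPM in early control skin, 13-fold higher (log2 fold change 3.70, SE 0.463, edgeR adjusted p 5.39e-05). Dbp stood at 8.434, 4.422 and 5.061 CPM in sham skin, below all early libraries, and was 8.15-fold higher in early control skin (3.03, SE 0.402, adjusted p 9.14e-05).

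Nr1d2 (1.66), Tef (1.51), Nr1d1 (1.47), Per1 (1.44), Per3 (1.13) and Cry1 (0.90) were higher in early control than in sham skin too. Npas2 stood at 19.08, 12.66 and 11.62 CPM in sham skin and was lower in early control skin, where it reached at most 10.61 CPM (-1.35, SE 0.222, edgeR adjusted p 5.29e-04). Clock had a log2 fold change of -0.00 (SE 0.136). Some of these calls rested on single libraries. That of Nr1d1 was lost without sham replicate 3 (adjusted p 0.0502), that of Per1 without sham replicate 2 (0.0544) or 3 (0.067), and that of Per3 without sham replicate 2 (0.0666). That of Cry1 (adjusted p 0.0425) was lost without any 1 of the 3 sham libraries, without replicates 2, 3 or 4 of control week 1 or of control week 2 (0.055 to 0.141), without the filter (0.0509) and with total-count scaling (0.0733).

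Late control skin differed from sham skin in 2 of the 10 genes, where 5.44% of all genes were called, 1.32% higher and 4.12% lower. Per2 (log2 fold change 1.46, SE 0.41, edgeR adjusted p 0.0311) and Cry1 (1.03, SE 0.288, adjusted p 0.0296) were higher. Neither passed without any 1 of the 3 sham libraries (0.0832 to 0.136), Per2 not without replicate 1 (0.0515) or 3 (0.0515) of control week 3, and Cry1 not without replicate 1 of control week 3 (0.0507) or of week 4 (0.0526). Without sham replicate 1, Clock (0.51, adjusted p 0.043) and Nr1d2 (0.86, adjusted p 0.0429) passed. Dbp (0.28), Tef (0.19), Npas2 (0.37) and Per3 (-0.17) did not pass, with adjusted p from 0.394 to 0.731.

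Early radiated skin differed from sham skin in 8 of the 10 genes, 7 higher and Npas2 lower (-1.62, SE 0.221, edgeR adjusted p 4.17e-05), where 14.4% of all genes were called, 6.41% higher and 7.97% lower. Late radiated skin differed in 3, where 34.2% of all genes were called, 14.9% higher and 19.3% lower: Per2 was higher (1.13, SE 0.403, adjusted p 0.0292), and Tef (-0.80, SE 0.169, adjusted p 4.76e-04) and Per3 (-0.66, SE 0.232, adjusted p 0.0277) were lower. The Per2 call was lost without radiated week 3 replicate 1 (0.0516) or sham replicates 1 (0.101) or 2 (0.108). That of Per3 was lost without radiated week 3 replicate 2 (0.0554) or 3 (0.0517), week 4 replicate 3 (0.0528), or sham replicates 1 (0.136) or 3 (0.117), and with total-count scaling (0.0682). Nr1d2 (-0.56, adjusted p 0.0509) passed without any 1 of 7 libraries (0.0219 to 0.0462): sham replicate 3, control week 2 replicate 1, control week 4 replicate 1, radiated week 1 replicate 3, radiated week 3 replicates 1 and 4, and radiated week 4 replicate 2. Nr1d2 also passed with the replicate number as a block (-0.59, adjusted p 0.0406).

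Arntl was lower than in sham skin in early control (-0.66, edgeR adjusted p 0.0375) and early radiated skin (-0.75, 0.0132), and did not pass in late control (0.46, 0.229) or late radiated skin (-0.29, 0.302). Of the 12 other core clock genes, Arntl included, 4 were called in early control skin, against 9.92% of all genes. There Cry2 (1.77, adjusted p 3.33e-04), Bhlhe40 (1.60, 3.33e-04) and Rora (1.08, 0.0173) were higher.

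Other lists differed from sham skin as well. The shares of all genes called are given above for each comparison. The 9 genes of the growing hair follicle summed to 876.6, 7976 and 9236 CPM in sham skin, against 19.72 to 2545 CPM in control week 1 and 30.46 to 38.44 CPM in control week 4, with overlap for the lowest sham library. In early control skin 4 of these 9 genes were lower than in sham skin, while 5 of 8 muscle genes, 4 of 6 adipocyte genes, 3 of 4 endothelial genes and 6 of 8 glucocorticoid response genes were higher. In late control and in early radiated skin 9 of 9 follicle genes were lower than in sham skin, with list medians of -7.45 and -9.11, and in early radiated skin 5 of 7 myeloid and 5 of 8 glucocorticoid response genes were higher. In late radiated skin 7 of 9 follicle genes and 6 of 8 muscle genes were lower, and 6 of 6 fibroblast genes and 7 of 7 myeloid genes higher. Their part in the differences from sham skin was not tested.

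A test of any difference among the 4 weeks called all 10 genes in control skin, where 11.9% of all genes were called, and 9 in radiated skin, where 34.7% were. Clock was the exception in radiated skin (edgeR adjusted p 0.23). In control skin Clock (0.0328) was lost on leaving out any 1 of 10 control libraries (0.051 to 0.0981; all of weeks 1 and 2 except replicate 2, and replicates 1 and 2 of weeks 3 and 4) and without the filter (0.0688).

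In the GRCm38 gene annotation the genes lie as follows: Per2 and Npas2 on chromosome 1 at 91415982 to 91459324 and 39193731 to 39363236, Per3 on chromosome 4 at 151003652 to 151044665, Clock on chromosome 5 at 76209868 to 76304792 and Dbp on chromosome 7 at 45705088 to 45710203. Cry1 lies on chromosome 10 at 85131700 to 85185064, Per1 and Nr1d1 on chromosome 11 at 69095217 to 69109960 and 98767932 to 98775333, Nr1d2 on chromosome 14 at 18204054 to 18239127 and Tef on chromosome 15 at 81802421 to 81826863. Nr1d1 overlaps Thra and Dbp overlaps Sphk2 on the opposite strand, and Per3 overlaps Camta1 on its own strand. The estimated counts of Per3, Nr1d1 and Dbp were not whole numbers in all 35 libraries, those of Clock in 18 and that of Nr1d2 in 1. Reads of these genes were therefore shared out between transcripts by estimation, and their levels carry an uncertainty that is not in the standard errors.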

How the data were processed

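Total RNA of skin biopsies kept in RNAlater was extracted with RNeasy kits and sequenced in bulk, per the labels' protocols. The authors deposited 1 table of estimated counts per gene for the 35 samples. Per the submitters' processing notes, reads were trimmed with Trim Galore 0.6.7 and quantified with kallisto 0.46.2, with mm10 as genome build, and the labels' protocols name Kallisto and DESeq2. The transcriptome release and the step from transcripts to genes are not given in the sources used here. Values that were not whole made up 29.5% to 32.5% of a library, so the estimated counts were rounded. Totals were 17362853 to 28487885 counts. No 2 of the 595 pairs of libraries were identical (lowest reduced chi-square 21.2).

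Tests used edgeR 4.0.16 (R 4.3.3) on the counts (filterByExpr, TMM scaling, quasi-likelihood F test, Benjamini-Hochberg adjustment over all genes of the comparison, threshold 0.05). Radiated and control skin were compared within each week on 8 libraries, early and late weeks on 32 with 1 mean per group, and sham skin on all 35. CPM used TMM-scaled totals, and log2 CPM a prior count of 2. Each SE was worked back from the test, as the size of the log2 fold change over the square root of F. Replicates are different mice. Both the weekly and the early and late fits treat the 2 samples of a mouse as independent, and the mouse block is an alternative. The numbers pair the samples, since a number stands for 1 mouse, from which both skins were taken. The mean correlation of their deviations was 0.07, 0.17, 0.05 and -0.02 in weeks 1 to 4, and -0.02, -0.06, -0.02 and 0.01 for other pairs. Deviations are taken from the group mean, which ties the second set of values to the first, so these values do not test the pairing.

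All 10 members are named whatever their values. The rule for other clock lists was to name, beside Arntl, up to 4 called genes per list and comparison with the smallest adjusted p. Those named follow it, but not every list and comparison is spelled out, and 2 genes that the rule takes are not reported here. The members and lists were chosen with earlier results of these data known. Usp2 and Tsc22d3 are in 2 lists. Alternatives were RLE or total-count scaling, no filter, DESeq2 1.42.0, limma 3.58.1 (voom, mouse as a random effect, consensus correlation 0.0998), replicate or mouse blocks, other sets of libraries, single pairs of weeks (added after seeing the data) and leaving out each library. The fits were tested on simulated data: for late against early control skin over 19092 genes, 65.7% of genes changed by 1 on the log2 scale and 91.8% of those changed by 2 were recovered, and 3.12% of calls were unchanged genes.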

Additional observations from a re-analysis of the deposited data

Results flagged for a closer look

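Nr1d1, Nr1d2 and Tef changed differently from early to late weeks in the 2 kinds of skin, by a test of the difference itself (edgeR): the change in radiated minus that in control skin was -1.02 for Nr1d1, -0.89 for Nr1d2 and -0.77 for Tef on the log2 scale. In single pairs of weeks Nr1d1 passed in 0 of 4, and Nr1d2 and Tef in 2 of 4 each.

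In control skin of week 4, replicate 1 had the highest level of Clock, 187.6 CPM, far from the other 3 libraries at 150.4 to 156.7 CPM. Its gap to the nearest of the others was 0.831 of the range of the group, just above the limit for 4 libraries. Chance sets apart about 1 in 20 groups, and this was 1 of 80 groups of members examined.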

How the results depend on the processing

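Of 4280 results for single members under another setting, 4133 kept their side of the threshold, and those called their direction, 99 lost the call, 47 gained one and 1 reversed past the threshold. Members that did not pass could change sign, such as Cry1 in radiated skin. The reversal was Cry1 in control skin, -0.95 for week 4 against week 2 (edgeR adjusted p 0.0371), against 0.14 for late against early weeks. The cause was not tested.

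With the mouse as a replicate block, the number of members whose change differed between the skins was 5 in place of 3, and the block moved no other count of called members by over 1.5 times. For week 3 against week 1, week 4 against week 1 and week 4 against week 2 that number was 1 each. Total-count scaling left 2 members called at week 3 in place of 4. In control skin, Per1 passed late against early in DESeq2 (0.0484), within the 16 control libraries (0.0469) and with the replicate number as a block (0.0161), and Nr1d1 in these (0.01, 0.0182 and 0.0331), with total-count scaling (0.0482) and in limma (0.0439).

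Leaving out 1 library at a time, called members numbered 6 to 8 in late against early control skin, 8 to 9 in radiated skin and 3 to 4 for their difference. They numbered 0 to 0 in weeks 1 and 2, 3 to 5 in week 3 and 6 to 8 in week 4. Against sham they numbered 6 to 9 (early control), 0 to 2 (late control), 8 to 8 (early radiated) and 1 to 4 (late radiated). Among weeks they numbered 9 to 10 in control and 9 to 9 in radiated skin, and 0 to 0 of the correlations within mice passed.

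Over all genes, calls late against early in control skin numbered 141, and 314 with DESeq2, 249 from the 16 control libraries, 90 to 1701 for single pairs of weeks and 49 (without control week 1 replicate 4) to 205 without 1 library. In radiated skin they numbered 6881, and 4318 to 4535 for 3 of the single pairs. For the difference they were 3829, and 1085, 1335 and 2102 for 3 pairs. Week 1 had 0 calls, 423 with DESeq2, 23 in a fit of all 35 libraries and up to 232 without 1 library. Week 2 had 1, and 2 without the filter, 734 with DESeq2, 641 with the mouse as a block, 544 in a fit of all 35 libraries and up to 206 without 1 library. Among weeks, calls numbered 2303 in control skin, 3537 with DESeq2, 4346 within that skin and 1374 without control week 4 replicate 3, and 6713 in radiated skin, 4372 within that skin. Against sham they ran from 358 to 3011 (early control, 1966), 1229 to 3202 (early radiated, 2851) and 360 to 1394 (late control, 1077) without 1 library, each lowest without sham replicate 3. Members with few counts, such as Npas2 and Dbp, are measured with the least depth.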
